A study of Bos taurus with 44 samples.

Results

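IL6, IL6R, STAT3 and IL17A, genes of 1 cytokine pathway, are described here in blood mononuclear cells of Holstein cows. They are 4 of the 141 bovine genes that the array names, and they were chosen by their symbols, with the contrast between cows chosen for antibody response and cows chosen for cell-mediated response already in view. Each was measured by 8 spots of 1 cDNA clone. The Entrez identifiers are 280826 for IL6, 507359 for IL6R, 508541 for STAT3 and 282863 for IL17A, and all 4 matched the RefSeq bovine gene table under the same symbol.

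Interleukin 6 is a cytokine of monocytes, macrophages, B cells and other cells that helps B cells to mature into antibody-secreting cells. It binds the receptor chain encoded by IL6R, and the complex then joins the signalling chain gp130, whose kinases phosphorylate STAT3. STAT3 enters the nucleus as a transcription factor, and together with transforming growth factor beta this signal directs helper T cells towards the Th17 fate, whose hallmark product is interleukin 17A.

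All cows had been immunized with antigens meant to raise both antibody and cell-mediated responses, and blood was taken 6 days later. The labels class cows as high or low for antibody response (Ab) or for the cell-mediated response (DTH), but name no unimmunized cows, no ages and no antigens. The 44 arrays stand for 11 cows. One cow was high-Ab and high-DTH, and is called the shared cow. High-Ab and high-DTH had 2 further cows each, low-Ab had 3 and low-DTH had 3. Beyond the shared cow, equal cow numbers across groups were read as separate animals, and the numbers were not taken to pair cows.

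Each array carried amplified RNA of 1 cow in one dye, Alexa647 or Alexa555, and a common RNA standard of the same cell type in the other. The deposited value of a spot is a log ratio, read here as log2 and as cow over standard, which is likely but not stated. A ratio of 0 therefore means the level of the standard, or no transcript on either side, and no level within a cell is known. For the same reason the cell type could not be checked by its markers. Arrays with opposite dyes were taken as already turned the same way. Spots of a gene were averaged, then arrays within each dye, then both dyes, to 1 value per cow. In such bulk RNA, fewer cells that express a gene and less RNA per cell cannot be told apart. The bacterial control gene vapA stood at 0.03 ± 0.09 (SD, n = 11 cows), which shows how far a cow's value can lie from 0 without a bovine transcript. IL6R, STAT3 and IL17A varied less than vapA over cows (SD 0.05, 0.07 and 0.07). Their averaged ratios near 0 therefore do not show whether these transcripts were detected.

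Of the 44 arrays, 3 ran against the rest: against arrays from other animals their mean correlation was −0.23 to −0.20, while that of every other array was at least 0.05. These were the first and second arrays of low-Ab cow 1 and the third array of low-DTH cow 3. The direction of their ratios is not settled. They were kept as deposited, and results that rest on them are also given with their signs turned. Turning reversed the sign of an array and kept its dye label. Whether the dye label should turn too is not known.

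IL6, the ligand, was below the standard in 10 of 11 cows, least so in cows chosen for Ab. The shared cow was the exception at 0.22. High-Ab cows 2 and 3 were at −0.29 and −0.26, and low-Ab cows 1, 2 and 3 at −0.05, −0.14 and −0.27. High-DTH cows 2 and 3 were at −0.56 and −0.68, and low-DTH cows 1, 2 and 3 at −0.77, −0.43 and −0.58. The lowest cow chosen for Ab thus lay above the highest chosen for DTH, with the shared cow above both sets. By group mean the order from the top was the shared cow, low-Ab (−0.15 ± 0.11, SD, n = 3), high-Ab (−0.28 ± 0.02, n = 2), low-DTH (−0.59 ± 0.17, n = 3) and high-DTH (−0.62 ± 0.09, n = 2). The last 2 groups overlap and change places with the 3 arrays turned, where low-DTH is at −0.71. Without the shared cow, high and low cows of the same trait overlapped, and the gap was between cows chosen for Ab and cows chosen for DTH.

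The 5 cows chosen for Ab, without the shared cow, averaged −0.20 ± 0.11 (SD) for IL6, and the 5 chosen for DTH −0.60 ± 0.13. By size, the difference of 0.40 ranked 5 of 141 named genes as deposited and 10 with the 3 arrays turned. IL6 was 1 of 3 named genes (2.13%) whose values in these sets did not overlap, and 1 of 7 (4.96%) with the arrays turned. This contrast helped to choose the genes, so it is a description and was given no test. The labels do not say whether these sets of cows were hybridized or normalized separately. A difference of trait and one of processing therefore cannot be told apart. The difference was 0.45 with the 3 arrays turned and 0.44 without them, and leaving out each of the 10 cows in turn gave 0.36 to 0.44. It was 0.30 over arrays with the cow in Alexa647 and 0.50 over arrays with the cow in Alexa555.

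Over arrays 1 and 2 of each cow the IL6 contrast was 0.48, and over later arrays it was 0.13 as deposited. That gap rests on 1 array, the third of low-DTH cow 3, which at 0.74 alone stood for that cow among later arrays. With the 3 arrays turned the contrast was 0.43 over either set. The other arrays of that cow were at −1.12 and −0.81. Of the 20 arrays of cows chosen for DTH, 19 were below 0 for IL6, and the array at 0.74 was the exception.

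**Figure D1:**
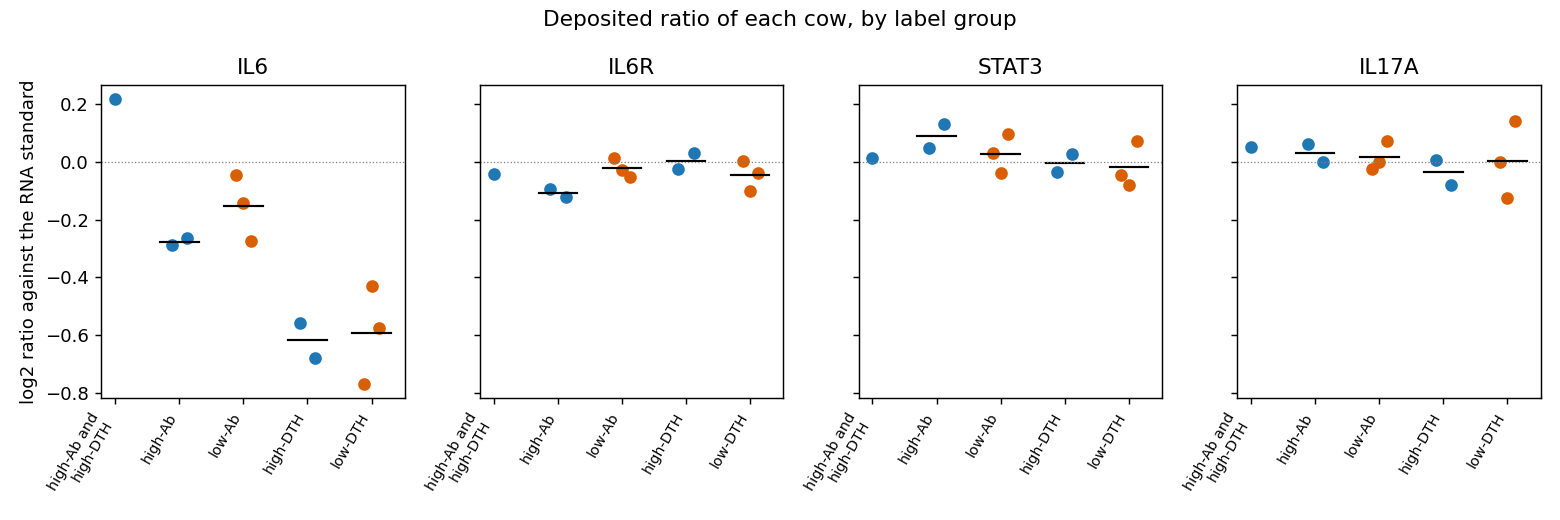
Log2 ratio against the RNA standard (vertical axis) of IL6, IL6R, STAT3 and IL17A in each of 11 cows, by label group (horizontal axis); blue points are high and orange points low cows, and black bars are means of groups with over 1 cow. As deposited, IL6 falls from 0.22 in the shared cow to −0.77 in low-DTH cow 1 (with the 3 arrays turned, low-DTH cow 3 is lowest at −0.95), and the other genes stay between −0.13 and 0.14.

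The averaged ratio of IL6R, the ligand-binding receptor chain, hardly differed between cows. The shared cow was at −0.04. High-Ab cows 2 and 3 were at −0.09 and −0.12, low-Ab cows 1, 2 and 3 at 0.01, −0.03 and −0.05, high-DTH cows 2 and 3 at −0.02 and 0.03, and low-DTH cows 1, 2 and 3 at 0.0017, −0.10 and −0.04. Both high-Ab cows lay among the lowest 3 of the 11, beside low-DTH cow 2. The SD of 0.05 over all 11 cows was the smallest of the named genes, rank 141 of 141, against a median of 0.15 and against 0.29 for IL6, rank 28.

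STAT3, the transcription factor, also stayed near 0. The shared cow was at 0.01, high-Ab cows 2 and 3 at 0.05 and 0.13, low-Ab cows 1, 2 and 3 at 0.03, −0.04 and 0.09, high-DTH cows 2 and 3 at −0.04 and 0.03, and low-DTH cows 1, 2 and 3 at −0.04, −0.08 and 0.07. Of the groups with over 1 cow, high-Ab and high-DTH were the only pair that did not overlap. With 2 cows in each, such a separation can easily arise by chance. Its share over the named genes was not counted, so nothing is concluded from it. The SD over cows was 0.07, rank 136 of 141.

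IL17A, the Th17 effector cytokine, was likewise near 0 in every cow once both dyes were averaged. The shared cow was at 0.05, high-Ab cows 2 and 3 at 0.06 and −0.00066, low-Ab cows 1, 2 and 3 at −0.03, 0.00078 and 0.07, high-DTH cows 2 and 3 at 0.0076 and −0.08, and low-DTH cows 1, 2 and 3 at −0.0012, −0.13 and 0.14. Low-DTH cow 2 was the lowest. Low-DTH cow 3 was the highest as deposited, but at 0.06 with the 3 arrays turned it lay below low-Ab cow 3. The SD over cows was 0.07, rank 124 of 141, and 0.06, rank 139, with the arrays turned. Between cows chosen for Ab and for DTH, the averaged ratios differed by −0.03 for IL6R, 0.07 for STAT3 and 0.03 for IL17A, all with overlap.

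The study's own question is whether high responders differ from low responders of a trait. None of the 4 genes was called in any of these comparisons (limma, Benjamini-Hochberg over all features), and none had cows without overlap. For Ab, 3 high cows including the shared cow were set against 3 low cows. High-Ab cows averaged −0.11 ± 0.28 (SD) for IL6 and low-Ab cows −0.15 ± 0.11, which differ by 0.04 ± 0.16 (SE, limma adjusted p = 0.999). The difference was −0.06 ± 0.08 for IL6R, 0.04 ± 0.09 for STAT3 and 0.02 ± 0.08 for IL17A. In that comparison limma called 0 of 562 features (0%; 37 at an unadjusted p under 0.05), and 15 of 141 named genes (10.6%) had no overlap.

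The DTH comparison shares that cow with the Ab comparison. The 3 high-DTH cows averaged −0.34 ± 0.49 (SD) for IL6 and the 3 low-DTH cows −0.59 ± 0.17, which differ by 0.25 ± 0.25 (SE, limma adjusted p = 0.796). It rested on 1 animal: without the shared cow it was −0.03, and the Ab difference of IL6 then was −0.12. The DTH differences of the other genes were 0.04 ± 0.08 for IL6R, 0.02 ± 0.09 for STAT3 and −0.01 ± 0.10 for IL17A. Here too limma called 0 of 565 features (0%; 55 unadjusted), and 22 of 141 named genes (15.6%) had no overlap.

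The 2 high-minus-low effects were also set against each other in 1 fit of all 11 cows. The Ab effect minus the DTH effect was −0.21 ± 0.14 (SE) for IL6, −0.10 ± 0.10 for IL6R, 0.02 ± 0.11 for STAT3 and 0.03 ± 0.12 for IL17A, with limma adjusted p from 0.820 to 0.945. The fit called 7 of 561 features (1.25%), none of them among the 4 genes, and 0 with the 3 arrays turned (0%; 86 unadjusted). All 5 high against all 6 low cows differed by 0.06 ± 0.17 for IL6, −0.02 ± 0.05 for IL6R, 0.03 ± 0.06 for STAT3 and −0.0027 ± 0.06 for IL17A, each with a limma adjusted p of 0.996. That fit called 0 of 561 features (0%; 20 unadjusted), and 2 named genes (1.42%) had no overlap. A missed threshold does not show that the groups were alike, and the errors were widest for IL6.

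**Figure D2:**
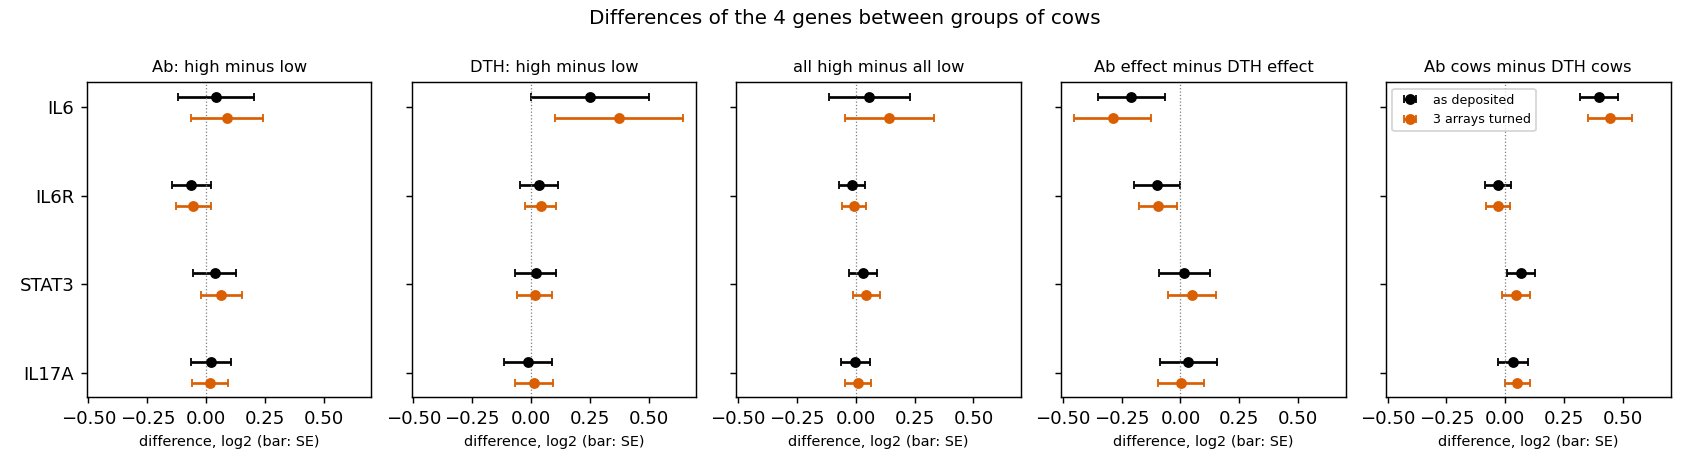
Differences in log2 ratio (horizontal axis, bars are SE) of the 4 genes in 5 comparisons of cows, as deposited (black) and with the 3 arrays that ran against the rest turned (orange). Only IL6 between cows chosen for Ab and for DTH, at 0.40 and 0.45, is far from 0 relative to its bar, and that contrast was a description without a test.

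The values near 0 of IL6R and IL17A in the cows chosen for Ab are averages of arrays of opposite sign. With the cow's RNA in Alexa647, IL17A was below 0 on 10 of 10 arrays of these cows, from −0.60 to −0.17 with a median of −0.26. With the cow in Alexa555 it was above 0 on 10 of 10 arrays, from 0.21 to 0.56 with a median of 0.32. As deposited, no array of one dye reached the range of the other. With the 3 arrays turned, 9 of 10 were below 0 with Alexa647 and 9 of 10 above 0 with Alexa555, and the dyes overlapped, since low-Ab cow 1 then gave 0.33 and −0.31. In cows chosen for DTH the ranges overlapped, with medians of −0.0086 over 9 Alexa647 arrays and 0.03 over 11 Alexa555 arrays.

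IL6R did the same. In cows chosen for Ab it was below 0 on 10 of 10 Alexa647 arrays (median −0.30) and above 0 on 9 of 10 Alexa555 arrays (median 0.19). In cows chosen for DTH the medians were −0.03 and 0.0065. IL6 in cows chosen for Ab was below 0 on 10 of 10 Alexa647 arrays (median −0.47) and above 0 on 6 of 10 Alexa555 arrays (median 0.07). In cows chosen for DTH it was low with either dye, with medians of −0.71 and −0.50. STAT3 in cows chosen for Ab was above 0 on 10 of 10 Alexa555 arrays and below 0 on 6 of 10 Alexa647 arrays. Turning the 3 arrays changed each of these counts by 1, to 9 and 8 for IL6R, 9 and 5 for IL6, and 9 and 7 for STAT3.

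**Figure D3:**
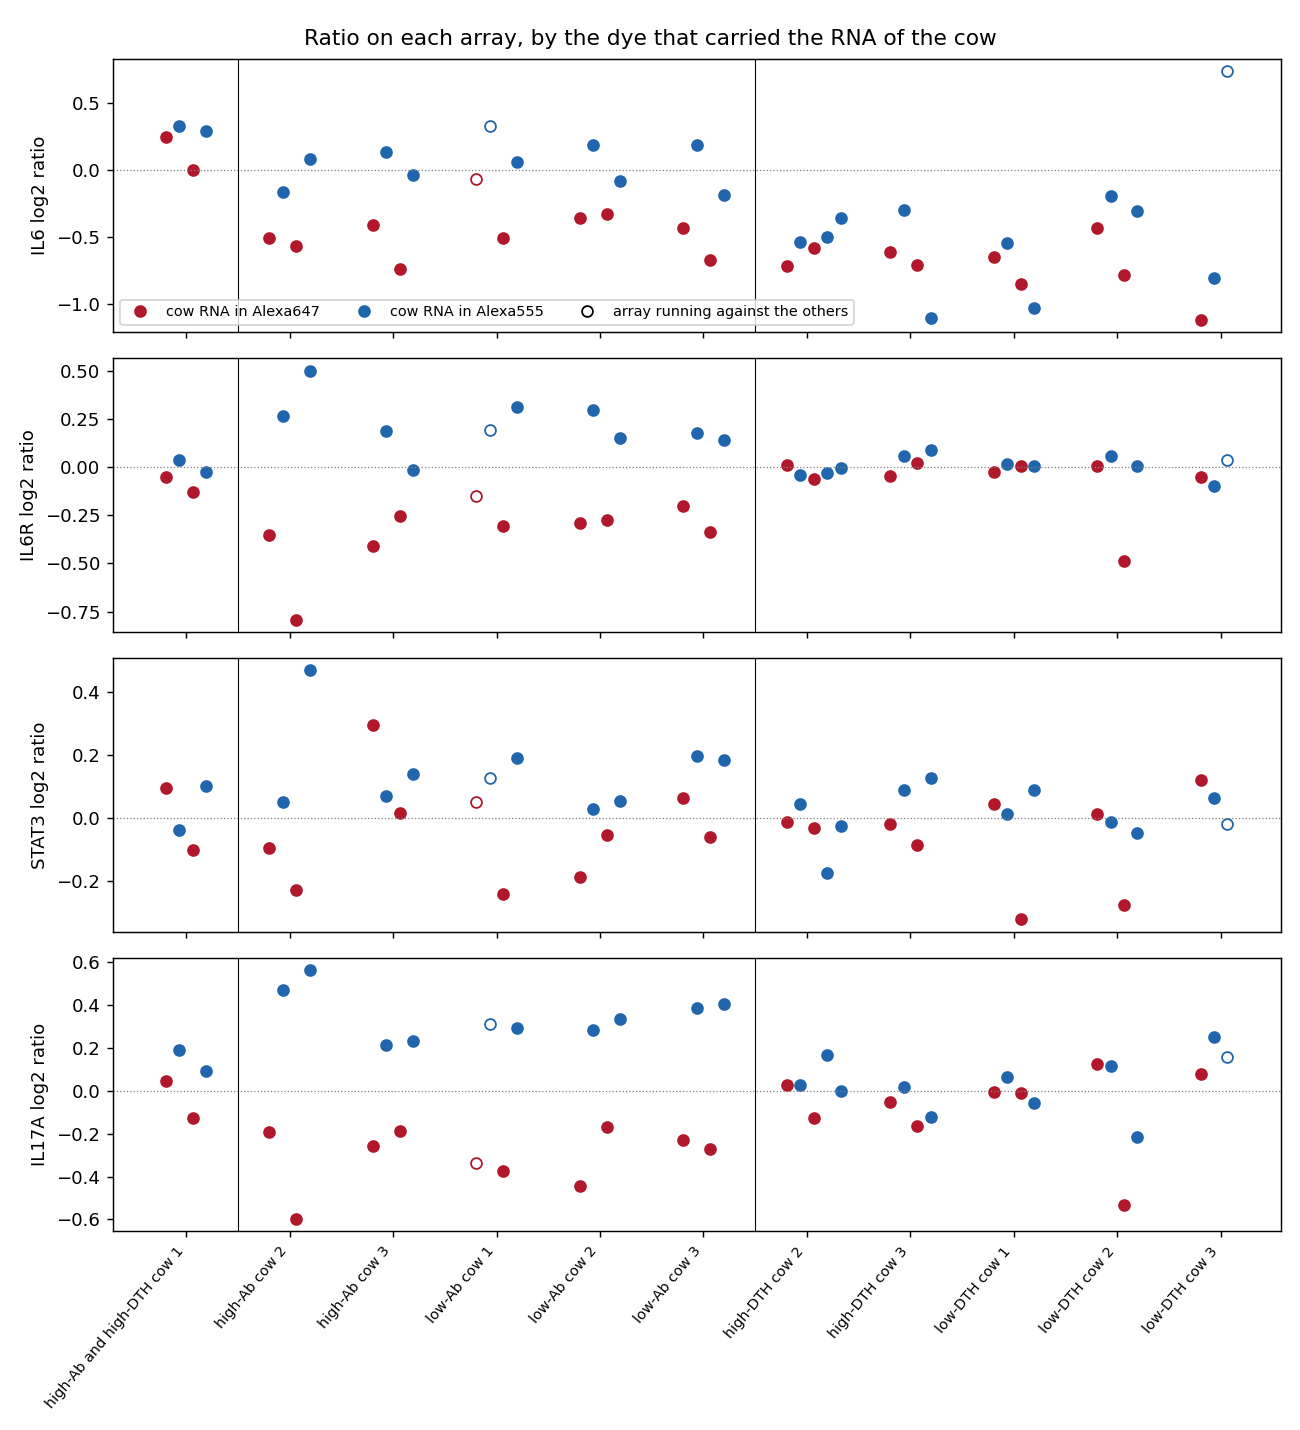
Log2 ratio (vertical axes) of each gene on each of 44 arrays, by cow (horizontal axis); red points have the cow's RNA in Alexa647, blue points in Alexa555, and open points are the 3 arrays that ran against the rest. For IL17A, as deposited, all red points lie below 0 and all blue points above 0 in the 5 cows chosen for Ab (between the vertical lines), whereas the colours mix in the 5 cows chosen for DTH at the right.

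The separation was put into 1 number per cow, the mean of its Alexa647 arrays minus the mean of its Alexa555 arrays, called the dye gap here. A gene that follows the cow and not the dye has a gap of 0. This measure and its test were chosen after the values had been seen, but the gap is not the average that chose the genes. The IL17A gap was −0.91 and −0.44 in high-Ab cows 2 and 3 and −0.66, −0.61 and −0.65 in low-Ab cows 1, 2 and 3. It was −0.11 and −0.06 in high-DTH cows 2 and 3, −0.01, −0.15 and −0.12 in low-DTH cows 1, 2 and 3, and −0.18 in the shared cow. As deposited, every cow chosen for Ab thus had a wider gap than every cow chosen for DTH, and the shared cow lay near the latter.

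The mean IL17A gap was −0.65 ± 0.17 (SD, n = 5) in cows chosen for Ab and −0.09 ± 0.06 (n = 5) in cows chosen for DTH, a difference of −0.56 ± 0.10 (SE, limma adjusted p = 0.0108). With the 3 arrays turned it was −0.46 ± 0.14 and not called (limma adjusted p = 0.173), and without them −0.56 ± 0.09 (limma adjusted p = 0.00481). Turned, low-Ab cow 1 had an IL17A gap of −0.01 and overlapped the cows chosen for DTH. As deposited, its 2 arrays in question had the dye signs of the other cows chosen for Ab. Turned with their dye labels kept, they offset its other arrays, and without them its gap was −0.67. Gaps with the dye labels also turned were not tested, so the lost call holds only for this way of turning. Leaving out each cow in turn, as deposited, kept the IL17A call, with differences of −0.62 to −0.50.

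IL6R had gaps of −0.96 and −0.42 in high-Ab cows 2 and 3 and of −0.48, −0.51 and −0.43 in low-Ab cows 1, 2 and 3. Its gaps in cows chosen for DTH ran from −0.27 to −0.00035, with no overlap as deposited, and the shared cow was at −0.10. With the 3 arrays turned, low-Ab cow 1 was at −0.14 and the sets overlapped. The means were −0.56 ± 0.23 (SD) and −0.08 ± 0.11, a difference of −0.48 ± 0.12 (SE) that just missed the threshold (limma adjusted p = 0.0523). It passed without the 3 arrays (limma adjusted p = 0.0183) and without low-DTH cow 2 (0.0298), and did not with the arrays turned (0.196). IL6 had gaps of −0.51 ± 0.08 and −0.31 ± 0.46, a difference of −0.20 ± 0.19 (limma adjusted p = 0.550). Without the 3 arrays the IL6 difference was −0.37 ± 0.10 (limma adjusted p = 0.0334), and without low-DTH cow 3, which holds 1 of them, −0.39 (0.0482). STAT3 had gaps of −0.19 ± 0.17 and −0.06 ± 0.12, which did not differ by test (limma adjusted p = 0.506).

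The dye gap was not particular to these genes. Limma called 20 of 561 features for it (3.57%; 126 unadjusted), 0 with the 3 arrays turned (0%; 106 unadjusted), and 22 of 141 named genes (15.6%) had no overlap, or 5 (3.55%) with the arrays turned. The median size of the gap over named genes was 0.22 in cows chosen for Ab and 0.09 in cows chosen for DTH, and without the 3 arrays 0.23 and 0.08. Ranked by its size in cows chosen for Ab, IL17A was 8, IL6R 14, IL6 18 and STAT3 78 of 141. Arrays of different cows chosen for Ab had a mean correlation over spots of 0.35 with the same dye and 0.09 with opposite dyes, and for DTH the values were 0.25 and 0.21, leaving the 3 arrays out. Whether a dye effect of the probes, the labelling or the standard lies behind the gap was not tested.

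**Figure D4:**
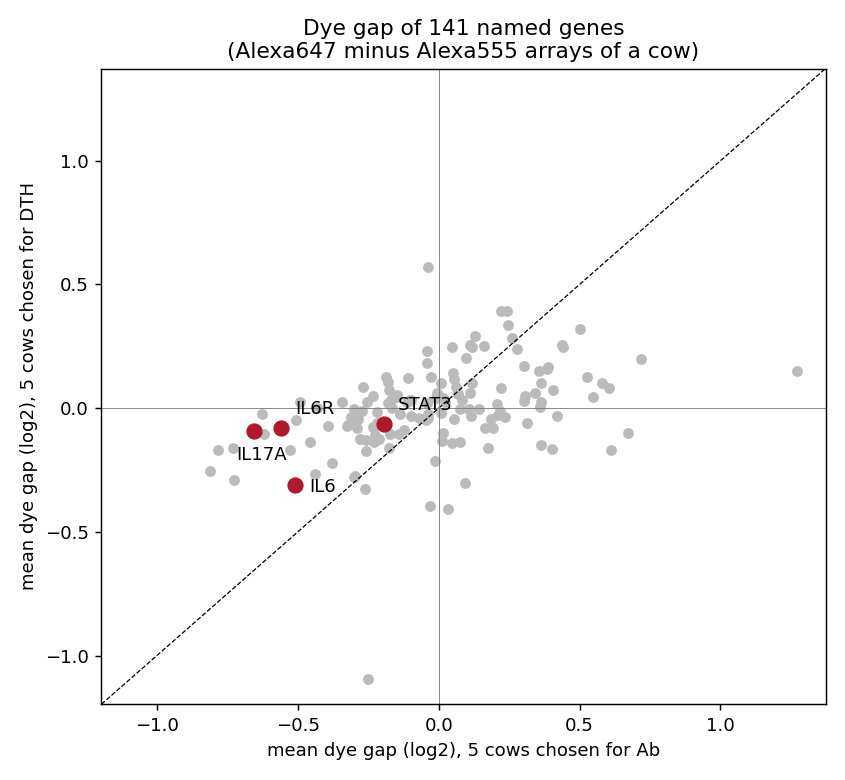
Mean dye gap (log2 ratio, Alexa647 minus Alexa555 arrays of a cow) of 141 named genes in 5 cows chosen for Ab (horizontal axis) and 5 chosen for DTH (vertical axis); the dashed line marks equal gaps and red points are the 4 genes. IL17A (−0.65 and −0.09) and IL6R (−0.56 and −0.08) lie far left of the line, with grey points beside them and others as far on the right.

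The dye decides what a single orientation would have shown. With the cow in Alexa647 alone, cows chosen for Ab minus cows chosen for DTH gave −0.27 for IL6R and −0.25 for IL17A. With the cow in Alexa555 alone the same contrast gave 0.21 and 0.31. STAT3 gave −0.000025 and 0.13. IL6 kept its sign, at 0.30 and 0.50.

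Between arrays, each pair of the 4 genes correlated more closely in cows chosen for Ab, where the dye gap was wide, than in cows chosen for DTH; the difference was not tested. Over the 20 arrays of cows chosen for Ab, IL6R and IL17A had r = 0.93, IL6 and IL6R 0.82, and IL6 and IL17A 0.76. Over the 20 arrays of cows chosen for DTH the same pairs had 0.60, 0.21 and 0.27. STAT3 had 0.55 with IL6, 0.67 with IL6R and 0.70 with IL17A over arrays of cows chosen for Ab, against −0.07, 0.48 and 0.39 for DTH. These arrays share cows, the standard and the dyes. Over the 11 cow values, where the dyes are balanced, IL6R and IL17A had r = −0.09, IL6 and IL6R −0.23, and IL6 and IL17A 0.15. STAT3 and IL17A had the highest r of the 6 pairs over cows, at 0.53 (rho 0.53, and 0.50 without the 2 cows farthest from the median). These are descriptions over values that share a standard.

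Of 56 other genes listed for this pathway, 15 were measured, and the list was drawn up with earlier results known. They cover the IL6R-shedding protease ADAM17, the STAT3-using cytokines IL10 and CSF3, the Th17 inducers TGFB1, IL1B, IL12B and IL12RB1, the Th17 chemokine CCL20, the interleukin 17 targets CXCL8, CSF2 and CCL2, the STAT3 targets BCL2 and BCL2L1, and IL10RA and STAT6. The gp130 chain, the JAK kinases and SOCS3 had no spot with a single symbol. In the Ab comparison 6 were higher and 9 lower in high cows, with a median of −0.01 against −0.01 for all 141 genes. In the DTH comparison 10 were higher and 5 lower, with medians of 0.03 and −0.03. Of these, 0 passed the test in either comparison.

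IL1B, an inflammatory cytokine that supports the Th17 fate, was the listed gene called for the Ab effect minus the DTH effect, among 7 of 561 features (1.25%). For Ab, high cows averaged −0.87 ± 0.39 (SD) and low cows 0.05 ± 0.10, and for DTH, high cows averaged −0.56 ± 0.30 and low cows −1.28 ± 0.34. The effects differed by −1.63 ± 0.25 (SE, limma adjusted p = 0.0393), and by −1.81 with the 3 arrays turned, where the call was lost (0.0592). Leaving out any 1 of 9 of the 11 cows also ended the call. It held without high-DTH cow 2 or 3, and the adjusted p ranged from 0.0148 to 0.125. The neutrophil chemokine CXCL8 had a difference of −1.74 ± 0.71 (limma adjusted p = 0.440). IL6 had the same sign at −0.21 and was not called. TGFB1, which joins IL6 in Th17 induction, had 0.02 ± 0.11.

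Between cows chosen for Ab and cows chosen for DTH, 14 of the 15 listed genes were higher and 1, IL10, was lower. With the 3 arrays turned the counts were 13 and 2. As deposited, the listed genes had a median of 0.06 against 0.03 for all named genes. The latter shows only that more named genes were higher than lower, not how their share compares with 14 of 15. The list was not tested as a set, and none of the 15 was without overlap. The cows of IL1B ran from low to high in both sets, at −0.41 ± 0.63 (SD) and −1.02 ± 0.47. For the dye gap, where 20 of 561 features (3.57%) were called, 3 of the 15 were called: IL12B (−0.57 ± 0.09, limma adjusted p = 0.00655), TGFB1 (−0.60 ± 0.12, 0.0170) and CSF3 (−0.46 ± 0.10, 0.0331), and none with the 3 arrays turned (0.173, 0.173 and 0.225).

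Markers of monocytes, a main source of IL6, were set beside its contrast. Of 8 listed markers, CD14, FCGR1A and TLR4 were measured, and 1 of 3 was higher in cows chosen for Ab (median difference −0.02). Their summed ratios ran from −0.36 to −0.08 in cows chosen for Ab and from −0.73 to 0.19 in cows chosen for DTH. The monocyte sum overlapped, and so did each of the 141 named genes except 3 (2.13%), of which IL6 was 1. All marker values here are as deposited. Of 4 measured B cell markers 0 were higher in cows chosen for Ab (median −0.11), and of 6 T cell markers 3 were (median −0.09). Neutrophil markers gave 1 of 2 higher, natural killer markers 1 of 2, and the gamma delta T cell marker CD163L1 differed by −0.27. The part of cell makeup in the IL6 contrast was not tested.

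Named genes most like each of the 4 were sought by Pearson r over the 11 cows. For IL6 these were TGFB2 (0.76), BCL2L1 (0.63) and SDF1 (0.61), but with group means removed r was −0.07, 0.01 and 0.04. Without the 2 cows farthest from the median, TGFB2 had 0.48, BCL2L1 0.09 and SDF1 0.59, so that of BCL2L1 rests on those cows. For IL6R they were CCR1 (0.76), IL10 (0.72) and CSF2RB (0.72), with 0.72, 0.68 and 0.65 within groups and 0.74, 0.69 and 0.69 turned. For STAT3 they were LOC617313 (0.80), NFKB2 (0.74) and BCL2 (0.66), with 0.83, 0.74 and 0.54 within groups. Turned, these STAT3 values were 0.82, 0.52 and 0.63. For IL17A they were the superoxide dismutase SOD1 (0.86), FASLG (0.86) and CD40LG (0.84), the last a T cell ligand for B cell help. The IL17A values within groups were 0.94, 0.97 and 0.87. Turned, the IL17A values over cows fell to 0.84, 0.72 and 0.66. As deposited, the likeness of IL6 therefore lay in the differences between groups, the shared cow included. That of IL6R, STAT3 and IL17A lay also in cows of the same group, and values within groups are given as deposited only. All these values are the highest of 140 and are descriptions.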

How the data were processed

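The values the authors deposited are log ratios of 1680 spots on 44 arrays, treated as log2. Per the labels, each array received amplified cow RNA and a common standard, with dyes swapped. Log base, scanner, background correction and normalization: not given in the sources used here. Medians of single arrays ran from −0.08 to 0.07. Platform annotation gave 1 symbol for 1224 spots, several for 16 and none for 440. The control vapA (16 spots) was set aside. Each of the 4 genes had 352 possible values, and STAT3 lacked 2 of them.

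Spots of a gene were averaged, unnamed spots were kept single, and arrays were averaged within a dye and then over both dyes of a cow. A feature needed both dyes in each cow. Tests used limma 3.58.1 in R 4.3.3 (lmFit, eBayes) with Benjamini-Hochberg adjustment over all features and a threshold of 0.05, and were tested on simulated data. Cows are the replicates, and their number limits the precision. The rule for named genes was the 4 members in full, for each the 3 genes of highest r over cows, and listed pathway genes with an unadjusted p under 0.05 in the 4 high and low tests, plus IL1B and TGFB1. Genes named for the dye gap, for single markers or as the exception in a count were chosen after their values were seen. The members and lists were chosen with earlier results of these data known. Alternatives covered array direction, dye, array set, centring, quantile normalization, spot summary, features tested, blocks and each cow left out.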

Additional observations from a re-analysis of the deposited data

Results flagged for a closer look

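Among 72 groups of values of the 4 genes, 2 held a value far from the others, where chance gives about 1 in 20. The IL6R dye gap of high-Ab cow 2, at −0.96, stood apart from the other cows chosen for Ab, which ran from −0.51 to −0.42. For IL6R, array 3 of low-DTH cow 2, at −0.49, stood apart from the other arrays of that cow. The IL17A dye gap, as deposited, differed between cows chosen for Ab and cows chosen for DTH by −0.56 (limma adjusted p = 0.0108). This measure and its test were chosen after the values had been seen. With the 3 arrays that ran against the rest turned in sign, dye labels kept, the difference was −0.46 and not called (limma adjusted p = 0.173). Without these arrays it was −0.56 (limma adjusted p = 0.00481). As deposited the difference was also −0.56 over arrays 1 and 2 alone (limma adjusted p = 0.000606) and −0.56 over later arrays (not called, 0.446). These 2 results are not like for like. Low-DTH cow 3 had no later Alexa647 array and so gave no gap there, and 505 features were tested against 551. The cause was not tested.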

How the results depend on the processing

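None of the 4 genes was called in the 4 tests of high and low cows under any alternative run. Counts of called features moved more. For the Ab effect minus the DTH effect, the 7 called fell to 4 with a plain mean over arrays, 2 with named genes only and 2 with the cow as a random block over array values. They fell to 0 with the 3 arrays turned or left out, with either dye alone, with arrays 1 and 2, with later arrays and with quantile normalization, and leaving out each cow gave 0 to 7 (7 without high-DTH cow 2, 3 without high-DTH cow 3, 0 without any other). The random block called 16 features for Ab, 2 for DTH and 9 for all high against all low, in place of 0, and leaving out each cow gave 0 to 1 for Ab (1 without the shared cow). For the dye gap, alternatives were chosen after seeing the data. Its 20 calls became 0 with the 3 arrays turned, dye labels kept, and 0 over later arrays, where low-DTH cow 3 gives no gap. They became 50 (3 arrays left out), 86 (arrays 1 and 2), 66 (quantile) and 35 (named genes only). Leaving out each cow gave 7 to 51 (51 without low-DTH cow 2). The causes were not tested.

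Between cows chosen for Ab and for DTH, single dyes moved IL6R, STAT3 and IL17A by more than the spread between cows, and later arrays moved IL6 to 0.13, or 0.43 with the 3 arrays also turned. Differences near 0 changed sign without being called. For IL6 the Ab difference was −0.039 over arrays 1 and 2. Over later arrays the DTH difference of IL6 was −0.17, its Ab minus DTH effect 0.30 and its all-high difference −0.11, and over Alexa555 arrays the last was −0.033. For IL17A the DTH difference was 0.014 with the arrays turned, 0.021 over later arrays and 0.025 with median centring. Its Ab difference was −0.043 over Alexa555 arrays and −0.041 over later arrays. Its Ab minus DTH effect was −0.040 over Alexa555 arrays, −0.062 over later arrays and −0.0047 with median centring. Its all-high difference was 0.0083 with arrays turned, 0.011 with Alexa647 arrays, 0.011 with median centring, 0.020 with quantile normalization, 0.0093 with the median over spots and 0.00049 with the random block. For STAT3 the DTH difference was −0.014 over arrays 1 and 2, and its Ab minus DTH effect was −0.012 over Alexa555 arrays, −0.030 over later arrays, −0.022 with median centring, −0.020 with quantile normalization and −0.012 with the median over spots. The all-high difference of IL6R was 0.010 with quantile normalization.

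Leaving out each cow gave IL6 differences of −0.12 to 0.13 for Ab, −0.027 to 0.42 for DTH and −0.075 to 0.15 for all high. IL17A ranged from −0.000054 to 0.049 for Ab, −0.077 to 0.056 for DTH, −0.035 to 0.098 for the Ab minus DTH effect and −0.030 to 0.023 for all high. STAT3 ranged from −0.012 to 0.064 for DTH and −0.029 to 0.049 for the Ab minus DTH effect, and IL6R from −0.036 to 0.0025 for all high.

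With the cow number as a replicate block, 0 features were called for Ab and 0 for DTH (28 unadjusted each), and no call of the 4 genes changed. Deviations of same-numbered cows correlated at −0.27 to −0.01 for Ab and −0.59 to −0.23 for DTH, so same-numbered cows were not alike. So few correlations cannot show that the number carries no pairing. No spot intensities were used here, so signal over background is unknown.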
